A study of Rattus norvegicus with 18 samples.

Results

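The cytosolic ribosomal proteins are the proteins of the large (Rpl) and small (Rps) ribosomal subunits that translate messenger RNA outside mitochondria. Members were the probe sets whose 1 gene symbol in the probe-to-gene table is Rpl or Rps followed by a digit, or Rplp0, Rplp1, Rplp2 or Rpsa, without the Rps6k kinases and the pseudogenes. The brightest probe set on average stood for each gene. The rule found 48 genes on 55 probe sets, 33 of the large and 15 of the small subunit, among 14217 genes with a probe set of their own on the array. A probe set was tested where its signal was 400 or more on any of the 18 arrays, which kept 42 members (29 and 13) of 12238 probe sets. Rpl26l1, Rpl28, Rpl30, Rpl39l1, Rps13 and Rps4y2 stayed below that signal on every array and were not tested. A further 36 probe sets carry several symbols, at least 1 of them a ribosomal protein, so they fall outside the rule and no gene is named from them.

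RNA was measured in diaphragm (DIA, the main muscle of breathing), extensor digitorum longus (EDL, a fast leg muscle) and extraocular muscle (EOM, which moves the eye) on 18 arrays, 3 for each combination of muscle and treatment. EAMG rats were immunized with acetylcholine receptor (AChR) of *Torpedo* in complete Freund's adjuvant with added mycobacterium, a model of myasthenia gravis in which antibodies against the receptor weaken neuromuscular transmission. Control rats received the same adjuvant without AChR. All were female Lewis rats, 6 to 8 weeks old per the methods, and muscles were taken at week 6. The RNA of an array came from a pool of rats (3 per the series design text, while the methods give other numbers). The methods describe repeats of the study as the source of the replicates. The p-values therefore measure the spread between pools, which may include that between repeats. The 3 muscles may come from the same rats, and the fit took all arrays as independent. In whole muscle, fewer cells of a type and less RNA per cell cannot be told apart.

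Ribosomal proteins are made in step with ribosomal RNA, and a cell's supply of ribosomes limits how much protein it can make. Most of their messages begin with a run of pyrimidines, the TOP motif, through which the mTORC1 kinase controls their translation together. In skeletal muscle, ribosome content is known to follow growth and wasting. Rpl3l is a paralog of Rpl3 made almost only in striated muscle, where it takes the place of Rpl3 in part of the ribosomes.

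Base sequences around the annotated start are shown for the members that passed the test in a muscle of EAMG rats (Rpl3, Rps3, Rpl12, Rpl18, Rpsa and Rpl4) and for the paralogs that lay lower (Rpl3l and Rps27l). Each window runs from 15 bases before to 15 bases after the RefSeq start of build GRCr8, 5′ to 3′ on the transcript strand. Capitals mark the longest run of at least 8 bases that are all C or T.
Rpl3, chr7:113507976-113508005, minus strand: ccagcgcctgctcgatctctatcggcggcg
Rps3, chr1:163195762-163195791, minus strand: TTCCTTTCagcggcgcgcggcagcaagatg
Rpl12, chr3:36661925-36661954, plus strand: ggagcaacatccgtcttttcggctttcggt
Rpl18, chr1:105325255-105325284, plus strand: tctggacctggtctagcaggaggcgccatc
Rpsa, chr8:128728864-128728893, plus strand: cctttccgcgctaccctggaacgggtccgt
Rpl4, chr8:73566462-73566491, plus strand: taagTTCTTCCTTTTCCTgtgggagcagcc
Rpl3l, chr10:14258431-14258460, plus strand: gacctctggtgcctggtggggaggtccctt
Rps27l, chr8:76443643-76443672, plus strand: gtttattcatttgtcattatttgtggtgtc
Of the 48 members, 41 had an entry, and 23 of these (56.1%) held such a run, against 11.4% of the 27457 genes with an entry. A run of at least 8 bases that are all A or G in the same window, which is C or T on the other strand, was also counted. It was held by 2.44% of members and 13.0% of all genes. Among the members that passed in a muscle, Rps3 and Rpl4 held the run, and Rpl3, Rpl12, Rpl18 and Rpsa did not. The windows depend on where the annotation places the start, and a match is a description only.

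The probe sets of 39 of the 42 tested members were among the brightest on the array. Their geometric mean signals over the 18 arrays lay between 7759 and 35437, and 34 of them stood above the 99th percentile of all probe sets. The other 3 were the probe sets of Rpl39 (320), Rps27l (640.0) and Rpl7l1 (957), and signals of different probe sets do not rank the genes. The skeletal muscle markers, such as Acta1 and Ckm, were bright in all groups. Myh13, the myosin of extraocular muscle, averaged 22117 in EAMG EOM and 25563 in control EOM, against 301 or less in DIA and EDL. The mean signal of the spiked poly-A controls was 842 on DIA EAMG 2 and 586 on EOM EAMG 2, and it ran from 11357 to 27513 over the remaining 16 arrays. GAPDH had a 3'/5' signal ratio of 2.66 on DIA EAMG 3 and of at most 1.33 elsewhere.

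In EDL the ribosomal protein genes lay higher in EAMG than in control. The change was above 0 for 38 of the 42 members, against 49.7% of all probe sets tested. The median was 0.19 on the log2 scale, against -0.003 for all probe sets tested. Under limma's moderated test with Benjamini-Hochberg adjustment over all probe sets, 5 members rose (Rps3, Rpl12, Rpsa, Rpl18 and Rpl4) and 0 fell. The background was 3.37% of all probe sets higher and 3.22% lower. At an unadjusted p under 0.05, 16 members were higher and 1 was lower. The share of all probe sets at that level was not counted, here or below, so counts at an unadjusted p have no background. All 3 EAMG arrays stood above all 3 control arrays for 23 members, against 12.6% of all probe sets, and below them for 1 (Rps27l), against 12.4%. On the 29 large subunit members the median was 0.19, and on the 13 small subunit members 0.23.

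**Figure D1:**
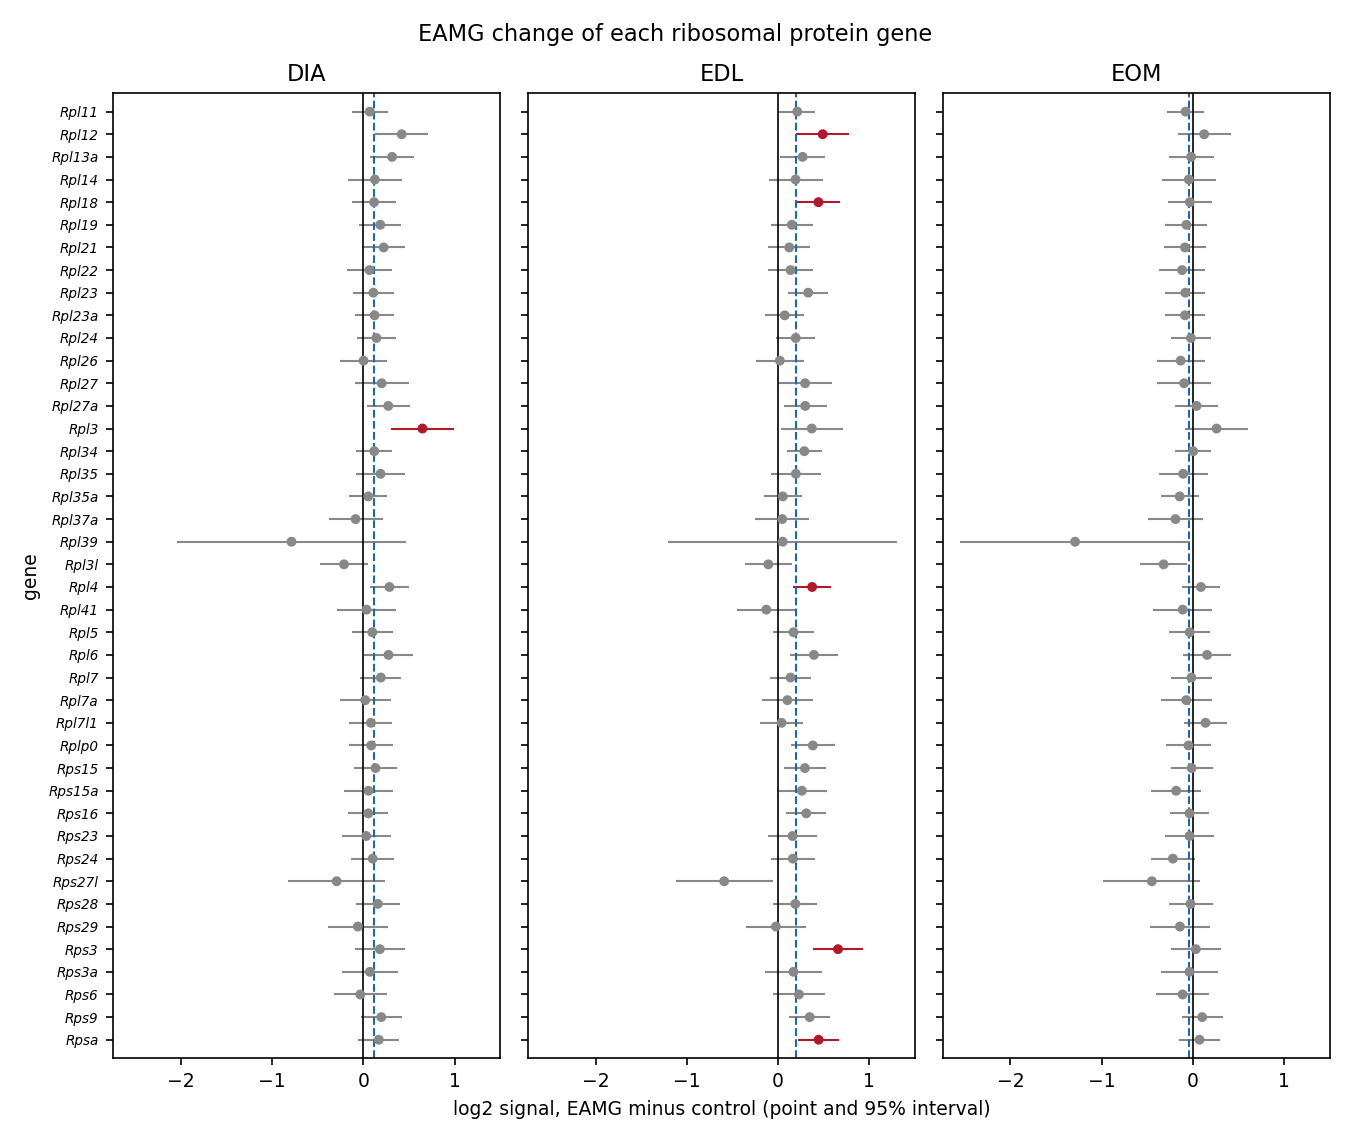
Log2 signal in EAMG minus control for each of the 42 tested members (rows) in DIA, EDL and EOM (panels), with 95% intervals of limma; red marks an adjusted p under 0.05, the dashed line the median over members. Most points lie right of 0 in DIA and EDL (medians 0.11 and 0.19) and 32 lie left of it in EOM (median -0.04).

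Rps3, a small subunit protein at the entry of the messenger RNA channel that also takes part in DNA repair, changed most in EDL. Its signal was 11673, 14821 and 12441 on the EAMG arrays, against 6857, 9087 and 8804 on the control arrays. The groups did not overlap, and the log2 change was 0.66 ± 0.13 (SE, adjusted p = 0.0103, limma). In DIA the Rps3 change was 0.18 and in EOM 0.03, and neither passed.

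Rpl12, at the base of the stalk where elongation factors bind, had signals of 16956, 21057 and 18336 on the EDL EAMG arrays, against 13260, 13556 and 13161 on the control arrays. Its log2 change was 0.49 ± 0.14 (SE, adjusted p = 0.0460, limma). EDL EAMG 2 was the highest array for Rpl12, and the controls lay close together. Rpsa, also known as the laminin receptor precursor, had 14629, 17211 and 15596 on the EAMG arrays and 10582, 11858 and 12412 on the control arrays. Its log2 change was 0.44 ± 0.11 (SE, adjusted p = 0.0248, limma). The 2 other Rpsa probe sets gave 0.36 and 0.31 in EDL, with adjusted p of 0.0796 and 0.142 under limma, so the direction was shared and the call was not.

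Rpl18, a large subunit protein, had 15732, 17534 and 13925 in EAMG EDL, against 11022, 11328 and 12253 in control EDL (log2 change 0.44 ± 0.11 SE, adjusted p = 0.0329, limma). Rpl4, which lines the exit tunnel of the growing chain, had 19586, 21220 and 19324 on the EAMG arrays, against 14768, 15756 and 15867 on the control arrays. Its change was 0.37 ± 0.10 (SE, adjusted p = 0.0371, limma). None of these 5 members overlapped between the groups in EDL. Rplp0, the scaffold of the stalk, gave 0.38 ± 0.11 (SE, adjusted p = 0.0602, limma) and did not pass.

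**Figure D2:**
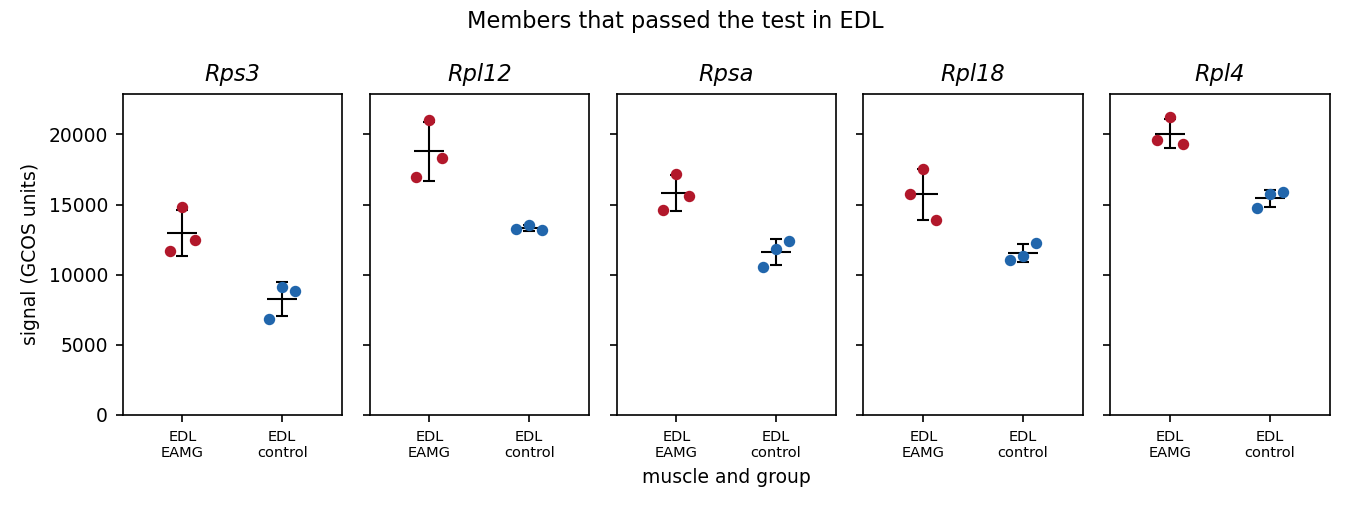
Signals of the 5 members that passed the test in EDL, on the 3 EAMG arrays (red, left) and the 3 control arrays (blue, right) of EDL; the bar and whiskers are mean and SD. In every panel the lowest EAMG array lies above the highest control array.

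The EDL calls depended on single arrays. Without EDL EAMG 2, or without EDL control 1, 0 members passed. Without EDL control 2 only Rps3 passed, and without EDL EAMG 3 Rpl18 and Rps3 did. Leaving out any of the 3 EOM control arrays left Rpl18, Rps3 and Rpsa. Of the 18 fits without 1 array, the call was lost in 11 for Rpl12 and in 7 for Rpl4. It was lost in 4 for Rpsa, 3 for Rpl18 and 2 for Rps3. The median over members stayed between 0.14 and 0.22 in all 18 fits that left out 1 array. With EDL fitted alone, and with no signal minimum, 0 members passed at the same log2 changes.

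In DIA the shift was smaller. The change was above 0 for 36 of 42 members, against 51.3% of all probe sets. The median was 0.11, against 0.01 for all probe sets. Only Rpl3 passed, with 0 lower, against backgrounds of 1.53% higher and 1.15% lower. At an unadjusted p under 0.05, 6 members were higher and 0 lower. All 3 EAMG arrays lay above all 3 controls for 14 members, against 13.3% of all probe sets, and below them for Rpl3l alone, against 11.1%.

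Rpl3, near the peptidyl transferase centre of the large subunit, had signals of 11454, 11631 and 10301 on the DIA EAMG arrays, against 7001, 7163 and 7117 on the control arrays. Each EAMG array was far above the 3 controls, and the log2 change was 0.65 ± 0.16 (SE, adjusted p = 0.0428, limma). The call was lost in 12 of the 18 fits without 1 array (each DIA and EOM control array, each DIA EAMG array, EDL control 2, EOM EAMG 1 and EOM EAMG 3). There the adjusted p reached 0.183 under limma (without DIA EAMG 2), while the change stayed between 0.61 and 0.70 in all 18. A second Rpl3 probe set, dimmer, gave -0.37 ± 0.38 (SE, adjusted p = 0.623, limma) in DIA. Its signals were 851.8, 373.5 and 890.6 on the EAMG arrays, against 846, 860.8 and 847.6 on the control arrays. The low value was that of DIA EAMG 2, an array with dim poly-A controls, and the remaining EAMG arrays lay close to the controls. The rise of the brightest probe set was thus not seen on the second. Averaged over both, the DIA change was 0.14. Rpl39 had the largest DIA change in size, -0.79 ± 0.59 (SE), and Rpl12 followed Rpl3 with 0.42 ± 0.14 (SE), and neither passed. Rpl39, a small protein of the exit tunnel, had signals of 363, 104 and 378 on the EAMG arrays, against 500.0, 271 and 544 on the control arrays, with DIA EAMG 2 the lowest, and without that array the change was -0.18.

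In EOM the members showed no shift shared by the 3 EAMG arrays. The change of 10 members was above 0 and of 32 below, while 50.1% of all probe sets were above 0. The median was -0.04 against 0.00 for all probe sets, and with quantile normalization it was 0.03. Under limma 0 members rose and 0 fell, against backgrounds of 0.964% higher and 0.531% lower, and at an unadjusted p under 0.05 there were 0 higher and 2 lower. All 3 EAMG arrays lay above all 3 controls for Rpl3 alone (background 12.5%) and below for Rpl3l alone (11.9%). The 3 EAMG arrays differed among themselves. Relative to the control mean, the median member stood at 0.14 on EOM EAMG 1, -0.09 on EOM EAMG 2 and -0.19 on EOM EAMG 3, while the EOM control arrays stayed between -0.01 and 0.01. EOM EAMG 3 also had the lowest top signal of all arrays, 33303, against up to 64766 in its group. Without EOM EAMG 3 the median was 0.03, and without EOM EAMG 1 it was -0.16.

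**Figure D3:**
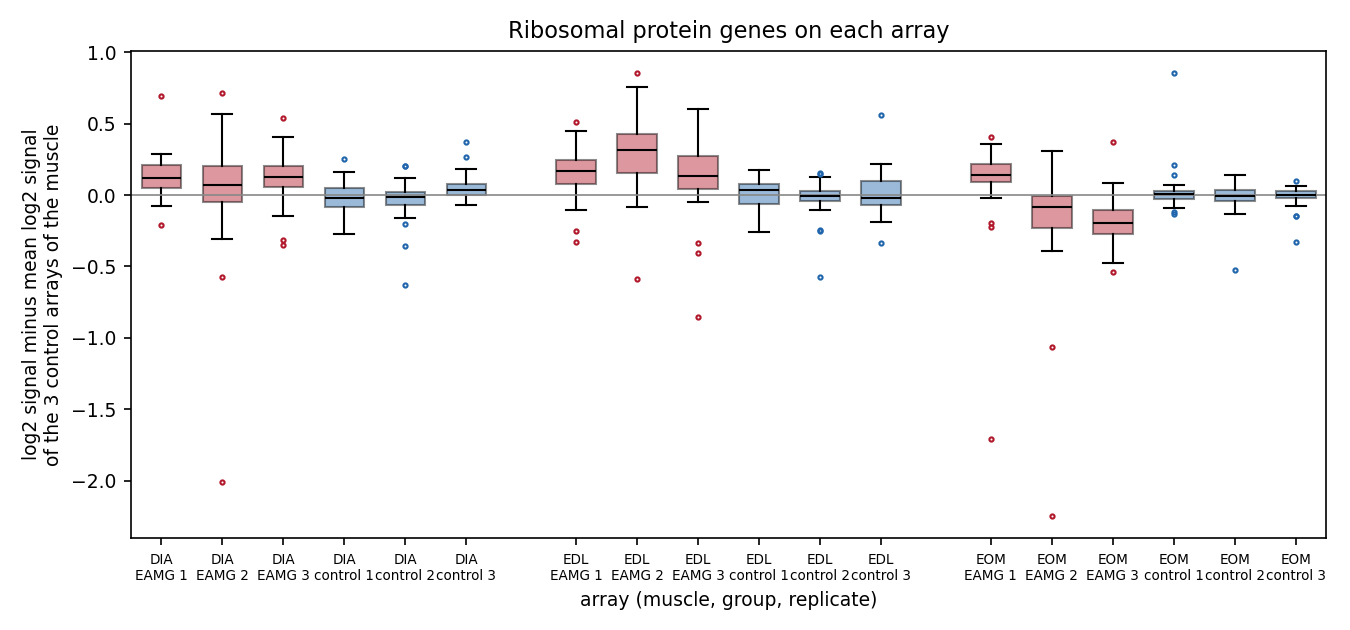
Log2 signal of the 42 members on each array relative to the mean of the 3 control arrays of the same muscle, EAMG (red) left of control (blue); boxes span the quartiles over members, with the median line, whiskers to 1.5 times the box and points beyond. The EDL EAMG medians run from 0.13 to 0.32, DIA EAMG from 0.07 to 0.12 and EOM EAMG from -0.19 to 0.14.

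The largest EOM changes were those of Rpl39 (-1.29), Rps27l (-0.45) and Rpl3l (-0.32), and none passed. For Rpl39 the EAMG arrays held 120, 82.7 and 418 and the control arrays 710, 273 and 314. For Rps27l, a paralog of Rps27 that p53 induces in human and mouse cells, they held 583, 325 and 654 in EAMG and 787, 651 and 616 in control. EOM EAMG 2 was the lowest for both, and without it the changes were -0.81 and -0.14.

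Under a rule on ratios, in which 7 or more of the 9 EAMG to control ratios of a muscle had to reach 2-fold, 0 members were higher and 0 lower in each muscle. Of all probe sets, DIA had 0.433% that met it as higher and 0.36% as lower, EDL had 0.531% and 0.351%, and EOM had 0.621% and 0.237%. A softer form asked for 7 of the 9 ratios on one side and a mean fold of 1.5. In DIA it called Rpl3 higher (background 4.01%) and Rpl39 lower (5.43%), in EDL Rps3 higher (5.23%) and Rps27l lower (6.93%), and in EOM 0 higher (3.55%) and Rpl39 lower (2.79%). With 1 of 42 members or none in each direction, these counts were not above the background shares.

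Over the 3 muscles together, the mean EAMG change was above 0 for 34 of 42 members, against 51.1% of all probe sets. The median was 0.09, against 0.01 for all probe sets. Under limma 8 members rose, Rpl3 (0.43 ± 0.09 SE), Rpl12, Rps3, Rpl6, Rpl4, Rpsa, Rps9 and Rpl27a, against a background of 10.5%. Against a background of 9.93%, 2 members fell, Rps27l (-0.44 ± 0.14) and Rpl3l (-0.21 ± 0.07). The second Rpl3 probe set, lowest on EOM EAMG 2 and DIA EAMG 2, gave -0.20 ± 0.22 (SE, adjusted p = 0.552, limma). With the mean of all probe sets of a gene Rpl3 no longer passed, while the 9 other members did. Without the 2 arrays in which the poly-A controls were dim, 3 passed (Rpl12, Rpl3 and Rpl4). The mean rests on the same arrays as the muscles' own values. Its SE and p-values take the muscles as independent, although the muscles may share rats. Between same-numbered arrays of different muscles, deviations from the group means correlated from -0.20 (EAMG EOM with EDL) to 0.47 (EAMG EOM with DIA). Comparisons between muscles carry the same limit.

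Whether the EAMG change differed between muscles was tested as a difference of changes. For EOM minus EDL, 39 of 42 members were below 0, with a median of -0.24, while 51.1% of all probe sets were above 0. Under limma 0 members passed (background 0.106%). At an unadjusted p under 0.05 there were 10 lower and 0 higher, and the smallest adjusted p was 0.241 (Rps3). For EOM minus DIA 41 of 42 were below 0 (median -0.15), with 48.4% of all probe sets above 0, and 0 passed. For EDL minus DIA 32 were above 0 (median 0.08), against 47.2% of all probe sets, and 0 passed. In both, 0.0163% of all probe sets passed. At an unadjusted p under 0.05 there was 1 member for EDL minus DIA and 0 for EOM minus DIA. These contrasts share arrays with the changes in each muscle.

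By its brightest probe set, Rpl3 lay on the opposite side of 0 from Rpl3l in all 3 muscles. The Rpl3 change in DIA, EDL and EOM was 0.65, 0.37 and 0.26 and that of Rpl3l -0.21, -0.11 and -0.32, and of these only Rpl3 in DIA passed. The second Rpl3 probe set gave -0.37 in DIA, 0.25 in EDL and -0.48 ± 0.38 in EOM (SE, adjusted p = 0.645 in EOM, limma). Its signals in EOM were 1087.3, 321.3 and 901.2 in EAMG, against 1125.4, 887.6 and 852.4 in control. The values below 0 were pulled down by DIA EAMG 2 and EOM EAMG 2, the arrays with dim poly-A controls. The Rpl3l signal was 11543, 9467 and 9436 on the DIA EAMG arrays, against 11768, 11796 and 11562 on the control arrays. In EOM it was 8136, 7961 and 6420 in EAMG, against 9459, 9441 and 9047 in control. In EDL the groups overlapped, with 17526, 17007 and 13625 in EAMG and 17685, 17332 and 16559 in control. Within an array, the log2 signal of the brightest Rpl3 probe set minus that of Rpl3l was higher in EAMG by 0.86 in DIA, 0.48 in EDL and 0.58 in EOM. In each muscle the 3 EAMG arrays lay above the 3 controls. Two-sided exact permutation gave p = 0.1 in each, the smallest that 3 against 3 arrays allow, and 0.1 after adjustment over the 6 such comparisons made here.

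**Figure D4:**
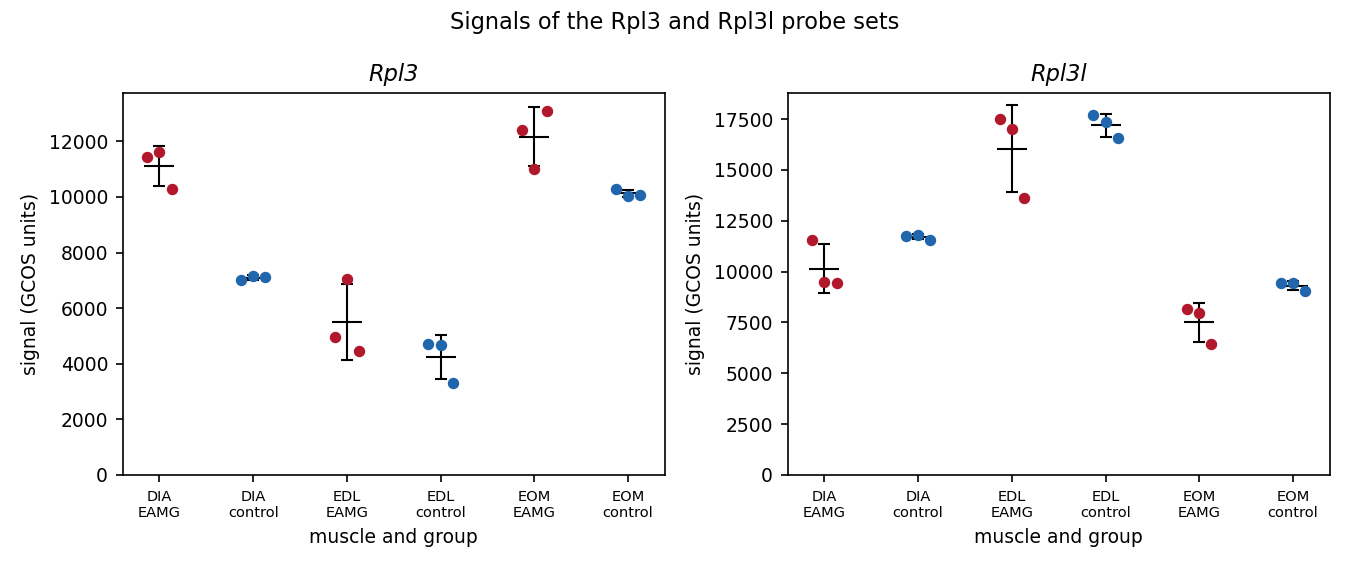
Signals of the brightest Rpl3 probe set and of the Rpl3l probe set on the arrays of each muscle, EAMG (red) left of control (blue); the bar and whiskers are mean and SD over 3 arrays. Rpl3 lies higher and Rpl3l lower in EAMG in DIA and EOM, and in the controls Rpl3 is lowest and Rpl3l highest in EDL.

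Between control muscles, the share of members called was below the background share in every comparison, higher and lower alike. By the brightest Rpl3 probe set, Rpl3 and Rpl3l lay on opposite sides of 0 in each, though not all of these differences passed. Control EOM against control EDL showed 3 members higher (Rpl3, Rps3 and Rps24) and 3 lower (Rpl3l, Rpl4 and Rpl24), against backgrounds of 23.1% and 18.3%. Rpl3 had 10274, 10036 and 10073 on the EOM control arrays, 7001, 7163 and 7117 on the DIA control arrays and 4715, 4657 and 3315 on the EDL control arrays. No group overlapped another. The log2 difference was 1.28 ± 0.16 for EOM minus EDL (SE, adjusted p = 1.85e-05, limma). It was 0.51 ± 0.16 for EOM minus DIA (adjusted p = 0.0318, limma) and 0.76 ± 0.16 for DIA minus EDL (adjusted p = 0.00321, limma). The second Rpl3 probe set gave 0.72 for EOM minus EDL (adjusted p = 0.147, limma) and 0.56 for DIA minus EDL (adjusted p = 0.304, limma). For EOM minus DIA it gave 0.15 ± 0.38 (SE, adjusted p = 0.832, limma), with overlapping arrays. None of the differences passed on that probe set.

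Rpl3l had the opposite order, with mean signals of 9316 ± 233 in EOM, 11709 ± 128 in DIA and 17192 ± 576 in EDL (SD, n = 3 each). It fell by 0.88 in EOM against EDL and by 0.55 in DIA against EDL (adjusted p = 4.44e-05 and 0.00439, limma). The difference of EOM and DIA, -0.33, had an adjusted p of 0.0678 under limma and did not pass, while it passed without EDL EAMG 3 or without EOM EAMG 3. Control EOM against control DIA had 1 member higher (Rpl3) and 0 lower, against 10.6% and 10.7%, and at an unadjusted p under 0.05 1 higher and 2 lower. The Rpl3 call there was lost without any one of the DIA or EOM control arrays, with no signal minimum and with the mean of all probe sets of a gene, where Rpsa passed as lower. In that comparison both other Rpsa probe sets were lower in EOM (-0.40 and -0.41), while the brightest one gave -0.17 and did not pass.

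Control DIA against control EDL had 2 higher (Rpl3 and Rps3) and 2 lower (Rps27l and Rpl3l), against 14.1% and 10.8%. Rps3 had 12239, 11380 and 13214 on the DIA controls, against 6857, 9087 and 8804 on the EDL controls (log2 difference 0.58 ± 0.13 SE, adjusted p = 0.00443, limma). Rps27l had 609, 449 and 691 on the DIA controls, against 1093, 898 and 1229 on the EDL controls (-0.89 ± 0.25 SE, adjusted p = 0.0176, limma). Rps24, whose signal was 24715, 26320 and 24448 on the EOM controls and 20837, 20631 and 19984 on the EDL controls, gave 0.30 ± 0.11 (SE, adjusted p = 0.0456, limma). Rpl4 and Rpl24 gave -0.30 and -0.28 in EOM against EDL. Over all members the control muscles differed little, with medians of -0.07, -0.02 and -0.04 for EOM minus EDL, EOM minus DIA and DIA minus EDL. Without EOM control 2, or without EOM control 3, the EOM against EDL calls were Rpl3, Rpl3l and Rps3.

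**Figure D5:**
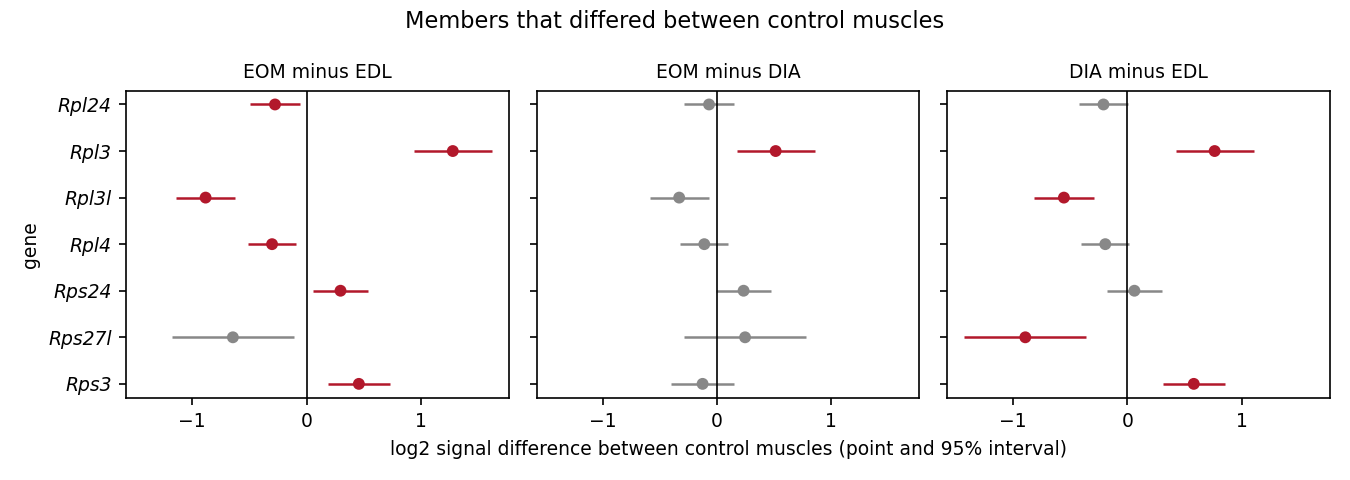
Log2 signal differences between control muscles (panels) of the members that passed in at least 1 of them, with 95% intervals of limma; red marks an adjusted p under 0.05. Rpl3 lies right of 0 in every panel (1.28, 0.51 and 0.76) and Rpl3l left of it (-0.88, -0.33 and -0.55).

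Other members with known roles stayed close to 0 or did not pass. Rps6, the substrate of the S6 kinases, changed by -0.03, 0.23 and -0.11 in DIA, EDL and EOM. Rpl5 and Rpl11, which bind Mdm2 when free of the ribosome, changed by 0.10 and 0.07 in DIA, by 0.17 and 0.21 in EDL and by -0.03 and -0.08 in EOM. The Rplp0 change was 0.09 in DIA and -0.05 in EOM. Rplp1, Rplp2, Rps27a, Rps4x, Rps27, Rpl22l1, Rpl36a, Rpl36al and Rpl39l had no probe set under the rule.

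The 35 tested probe sets with several symbols, which share no probe set with the members, gave similar values. In DIA 31 were above 0 (median 0.13) and 0 passed. In EDL 35 were above 0 (median 0.21), 7 rose and 0 fell, against backgrounds of 3.37% and 3.22%. In EOM 11 were above 0 (median -0.04) and 0 passed.

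The related lists were taken from general knowledge. Background shares of all probe sets for their counts were 1.53% higher and 1.15% lower in DIA. They were 3.37% and 3.22% in EDL, and 0.964% and 0.531% in EOM. Of 37 tested genes of ribosome assembly and RNA polymerase I, 2 rose in EDL, Myc (1.66) and Nob1 (0.72), and 0 passed in DIA or EOM. A count of 2 of 37 lies near the background share. The list's medians were 0.17, 0.23 and 0.10 in DIA, EDL and EOM. Of 12 tested messages of other TOP genes, Eef2, the elongation factor that moves the ribosome along the message, rose in EDL (0.39), and the medians were 0.33, 0.23 and 0.07. Of 20 genes of mTORC1 and the S6 kinases, Ddit4, an inhibitor of mTORC1, rose in all 3 muscles, by 1.62 in DIA and 2.25 in EDL. Eif4ebp1, the repressor of cap-dependent translation, rose in DIA and EDL (1.05 and 1.18). In EDL Sesn1 also rose (1.41), and Deptor and Rps6kb1 fell (-0.71 and -0.51). The 73 mitochondrial ribosomal proteins had medians of -0.06, -0.05 and -0.10. Of them 1 was higher and 1 lower in EDL and 0 in DIA and EOM, not above the background shares.

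Markers of other cells also moved, and the background shares given for the related lists apply to their counts. Of 3 tested erythroid genes 3 fell in DIA, 1 in EDL and 3 in EOM, and the summed signal of 6 genes was 2315 to 5528 in EAMG DIA, against 13510 to 20206 in control DIA. In EDL that sum was 1443 to 2970 in EAMG and 3909 to 5777 in control. Of 7 fibroblast markers 2 fell in DIA and 4 in EDL, with sums of 33115 to 41776 in EAMG DIA and 48531 to 57151 in control DIA, and of 17944 to 24295 in EAMG EDL and 23345 to 38516 in control EDL. Of 9 tested macrophage markers 0 passed in each muscle, and the sum of 10 genes was 11606 to 15843 in EAMG DIA and 7433 to 10794 in control DIA. In EDL the macrophage sum was 1939 to 4916 in EAMG and 1987 to 4403 in control. Of 11 lymphocyte markers 2 reached the signal minimum, and 0 of them passed in each muscle. An endothelial marker fell in EDL (1 of 7) and a lipid gland marker rose in EOM (1 of 3). In EOM the erythroid sum was 2267 to 3813 in EAMG and 9046 to 12646 in control. The endothelial sum was 6973 to 7757 in EAMG EOM and 7918 to 8924 in control EOM. The lipid gland sum was 5458 to 7310 in EAMG EOM and 2102 to 2824 in control EOM, and the neutrophil sum 533 to 815 and 225 to 295. The EOM sums of the other lists overlapped between the groups. Among these, the epithelial sum was 1012 to 4684 in EAMG EOM and 763 to 1729 in control EOM. All 6 tested epithelial genes were above 0 in EOM (median 1.42), and 0 passed. The 16 skeletal muscle markers, Myh13, and the neutrophil, Schwann cell, epithelial and adipocyte lists had 0 called in each muscle. The sum of the 16 skeletal muscle markers was 409080 to 452582 in EAMG DIA, below the 464175 to 481908 in control DIA. It overlapped between the groups in EDL and in EOM, with 304022 to 483567 in EAMG EOM and 398276 to 422741 in control EOM. The part of these cells in the ribosomal protein values was not tested.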

How the data were processed

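The deposited values are linear signal intensities. For them the authors used GCOS 2.0, which combines perfect match and mismatch probes, and brought all arrays to one target intensity. Gene symbols came from the platform annotation. The signals were taken to log2 here. limma 3.58.1 under R 4.3.3 (lmFit, eBayes) was fitted to 18 arrays with 1 mean per group and 10 contrasts, on the 12238 probe sets with a signal of 400 or more on at least 1 array, as in the study's methods, with Benjamini-Hochberg adjustment over all of them. The threshold was an adjusted p of 0.05. The script was tested on simulated data. The number of arrays limits the precision.

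The correlation of deviations from the group means was checked for same-numbered arrays. In EDL all 3 pairs of EAMG and control arrays were above 0.1, so the numbers may mark pairs there, by the data and not by the labels. In DIA, in EOM and between control muscles the same-numbered pairs were not all above it, and the numbers were not taken as pairs. The main fit had no term for the replicate number, so its values are unpaired, those of EDL included. The number entered only the alternative with a replicate block, which was applied to all 3 muscles together. With that block the members called in EDL were the same.

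The study's rule on change calls was replaced by one on ratios, in which 7 or more of the 9 EAMG to control ratios had to reach 2-fold.

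Members named are, in a muscle, up to 10 of those past the threshold, by size of change, with the 3 largest where fewer than 3 passed, the 5 largest between control muscles, and those listed by role. Members and lists were chosen with earlier results of these data known. The alternatives were no signal minimum, quantile normalization, median centring, 100 added to each signal, the replicate number as a block, the mean of a gene's probe sets, no low poly-A arrays, each array left out, each muscle alone and a softer ratio rule. Sequences are from RefSeq (GRCr8). Figures were drawn with matplotlib 3.10.9.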

Additional observations from a re-analysis of the deposited data

How the results depend on the processing

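No member that passed in a muscle changed sign under the alternatives, nor did the up to 5 largest that passed between control muscles. The signs of the members that passed for the mean over muscles were not followed. The EOM median turned to 0.03 with quantile normalization. The count of members higher in DIA (1) was 0 with no signal minimum, with median centring, with the mean of all probe sets of a gene, without both arrays whose poly-A controls were dim and with each muscle fitted alone, and 3 (Rpl12, Rpl3 and Rpl4) with quantile normalization, where the DIA median was 0.15. The EDL count (5) was 0 with no signal minimum and with each muscle fitted alone. The count for the mean over muscles (10) was 2 with no signal minimum and 3 without the arrays of dim poly-A controls. Control EOM against control DIA had 2 members (Rpl3 and Rps24) with quantile normalization. Under the softer ratio rule 1 member was called in each direction in DIA and EDL, and 0 higher and 1 lower in EOM. The cause was not tested.

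With each of the 18 arrays left out in turn, the counts ran from 0 to 1 higher in DIA, 0 to 7 higher in EDL, 7 to 12 for the mean, 3 to 7 for control EOM against EDL, 0 to 2 for control EOM against DIA and 3 to 4 for control DIA against EDL. The medians ran from 0.09 to 0.13 in DIA, 0.14 to 0.22 in EDL and -0.16 to 0.03 in EOM. The count was 0 lower in every muscle, 0 higher in EOM and 0 for each difference between muscles in these fits.

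The sources do not say whether a replicate number marks a shared experiment or pool. Of 9 same-numbered EAMG and control pairs, 7 had deviations correlated above 0.1 (r from -0.03 to 0.34), and 7 of 9 EAMG arrays correlated best with their own number. In EDL all 3 pairs did, in DIA and EOM 2 of 3 each. Between control muscles 2 of 3 same-numbered pairs were above 0.1 in each comparison (r from -0.01 to 0.39), and between EAMG muscles 2, 1 and 0 of 3 (EOM with DIA, DIA with EDL and EOM with EDL). With the replicate block the members called in DIA, in EDL and for the mean were those called without it. For control EOM against control DIA the count was 2 with the block (Rpl3 and Rpl3l) and for control EOM against control EDL it was 7, with Rps27l lower as the added member.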
